A study of Saccharomyces cerevisiae with 12 samples.

Results

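The cell wall genes described here were 10 genes for structural wall proteins of Saccharomyces cerevisiae, 6 anchored through a glycolipid tail (CWP1, CWP2, PST1, SED1, SPI1 and TIR1) and 4 of the PIR family (PIR1, HSP150, PIR3 and CIS3). They were taken by systematic identifier from both deposited expression tables. All 10 had a row in each table, which together list 7126 entries that name a gene. RNA in every group came from BY4742, a MATalpha haploid strain known to carry deletions in HIS3, LEU2, LYS2 and URA3, grown in synthetic dextrose complete medium. The 4 groups of 3 libraries were untreated controls and NaHS cultures of an early stage, with treatment under 72 h from inoculation, and the same pair for a late stage, with treatment over 72 h from inoculation. NaHS (sodium hydrosulfide) is a hydrogen sulfide donor. Neither its dose nor the time of harvest is given in the sources used here. No label states that libraries within a group were grown as separate cultures, so every p measures only the spread between these libraries, which may be technical.

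The yeast wall is a mesh of glucan, with a little chitin, covered by mannoproteins. Proteins with a glycosylphosphatidylinositol (GPI) tail reach the plasma membrane on that tail, and many are then moved onto the glucan through its remnant, whereas PIR proteins (proteins with internal repeats) are tied directly to glucan through bonds that mild alkali breaks. When the wall is stressed, membrane sensors act through the protein kinase C and Slt2 kinase cascade on the transcription factor Rlm1, and several genes of both classes are textbook targets of this cell wall integrity pathway. Walls of cells that have stopped dividing are thicker and harder to digest than walls of growing cells, and SED1 and SPI1 are known for high expression in that state.

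Positions are those of the R64 assembly, the build named in the submitters' processing notes. PIR1 (YKL164C, chromosome XI, 141794 to 142819, minus strand) and PIR3 (YKL163W, chromosome XI, 144401 to 145378, plus strand) are neighbours that point away from each other across 1581 bases. HSP150 (YJL159W, chromosome X, 120449 to 121690) and CIS3 (YJL158C, chromosome X, 122265 to 122948) are neighbours that point towards each other. CWP2 (YKL096W-A, chromosome XI, 259253 to 259531) lies upstream of CWP1 (YKL096W, chromosome XI, 261132 to 261851) on the same strand. The others are PST1 (YDR055W, chromosome IV, 563527 to 564861), SED1 (YDR077W, chromosome IV, 600793 to 601809), TIR1 (YER011W, chromosome V, 175248 to 176012) and SPI1 (YER150W, chromosome V, 468370 to 468816). These are coding spans, and none overlaps another gene of the reference annotation. The longest identical stretch between coding sequences of the 10 genes was 81 bases for PIR1 and PIR3 and 65 bases for HSP150 and CIS3, so reads from these stretches could have been assigned to either gene of the pair.

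The promoters are shown because the pathway above is defined by the sequence its factor reads. The 500 bases before each start codon were searched on both strands for the Rlm1 consensus (CTA and TAG around 4 bases that are each A or T), which is its own reverse complement. It was found before 5 of the 10 wall genes, against 1.82% of 6000 windows of the same length before protein-coding genes. A match is a description of letters and not a binding site. The stretches around the 5 matches follow, 5′ to 3′ on the coding strand, with the match in capitals. They lie at chrXI:260716-260785 for CWP1, chrX:120196-120265 for HSP150, chrXI:144091-144160 for PIR3, chrIV:563192-563261 for PST1 and chrIV:600293-600352 for SED1.
CWP1: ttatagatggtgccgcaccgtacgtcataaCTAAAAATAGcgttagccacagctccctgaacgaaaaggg
HSP150: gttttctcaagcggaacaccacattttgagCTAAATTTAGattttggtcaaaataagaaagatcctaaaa
PIR3: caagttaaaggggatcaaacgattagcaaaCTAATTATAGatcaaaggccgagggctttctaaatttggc
PST1: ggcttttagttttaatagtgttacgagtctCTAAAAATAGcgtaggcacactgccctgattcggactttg
SED1: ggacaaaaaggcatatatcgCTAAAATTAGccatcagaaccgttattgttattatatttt

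The stress response element AGGGG, read by the factors Msn2 and Msn4, was found in 34.1% of all windows and in those of 7 wall genes. SPI1 held 3 matches, the most among the wall genes, and a pair of them lies close together at chrV:468075-468146, shown on the coding strand with the matches (CCCCT, the reverse complement) in capitals.
SPI1: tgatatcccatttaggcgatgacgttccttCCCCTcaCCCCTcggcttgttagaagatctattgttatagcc
The heat shock element GAANNTTC was found before CWP2 alone among the wall genes (19.2% of all windows) and overlapped there with CGCGAAA, a Swi4 and Swi6 element. CGCGAAA was found before CWP1 and CWP2 (5.82% of all windows). The core ATTGTT, read by the oxygen-responsive repressor Rox1, was found before 4 wall genes, among them TIR1, and in 48.9% of all windows.

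LEU2, LYS2 and URA3 were listed at 0 in all 12 libraries. HIS3, also a deletion of this strain, lay between 301 and 345 TPM in early and between 115 and 522 FPKM in late libraries. Which part of HIS3 is deleted was not checked. TPM (transcripts relative to the library's whole, scaled by gene length) is the unit of the early table, and FPKM (fragments per length of gene and per library depth) that of the late table. Library totals were between 998109 and 998610 TPM early and between 1510276 and 2145467 FPKM late, the highest being late control 2. Early NaHS 3 stood apart from the other early NaHS libraries, with 3.195% of its total in ribosomal RNA entries against 1.699% and 1.442%. All of these were above the early controls, at 0.872%, 1.18% and 0.757%. Early NaHS 3 had the lowest value of its group for 8 of the 10 wall genes, against 45.5% of all genes tested. In late libraries control 3 had 3.599% in these entries, against 0.267% and 0.959% in the other controls and 0.259% to 0.328% with NaHS. Without late control 3, late calls over all genes were 123 higher and 290 lower, against 282 and 534 with it. Leaving out any late NaHS library gave similar counts, between 128 and 142 higher and between 306 and 318 lower. They were 291 and 580 without late control 1, and 272 and 444 without late control 2. The part of ribosomal RNA content in the results was not tested. Without early NaHS 3, the 6 wall genes called lower early kept their calls and PIR3 was also called lower. Lower calls over all genes grew as well, to 2317 of 6119 tested, against 1743 of 6124 with early NaHS 3. Log2 changes without this library were -1.36 for CWP2, -1.02 for PIR1, -0.97 for HSP150, -0.92 for CIS3 and -0.45 for TIR1.

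In early cultures NaHS lowered 6 of the 10 wall genes and raised 1. CWP1, CWP2, PIR1, HSP150, CIS3 and TIR1 fell, SPI1 rose, and PIR3, PST1 and SED1 did not pass the threshold of 0.05 on the limma adjusted p. Among all 6124 genes tested, 28.5% were called lower and 10.1% higher, and the median log2 change was -1.04 over the wall genes against -0.24 over all genes. Changes are NaHS minus control on the log2 scale of the value plus 1, which understates the change of low genes. Scaling moved the early balance: 1067 genes were higher and 1122 lower with median-ratio scaling, and 1207 higher and 939 lower with upper-quartile scaling, against 616 and 1743 in the values as deposited. Under each of these scalings 4 wall genes were lower and 1 higher. The 3 NaHS values lay below the 3 control values in 7 wall genes (41.3% of all genes) and above them in 1 (16.8% of all genes).

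CWP1, a GPI mannoprotein found mostly at the birth scar, changed most. Its early controls had 599, 532 and 865 TPM, and the NaHS libraries had 86.6, 131 and 16.4 TPM. The groups were far apart, with NaHS 3 lowest by a wide margin. The log2 change was -3.48 (SE 0.731, limma adjusted p = 0.0124), and it was -2.60 without NaHS 3 (adjusted p = 0.000719). CWP2, an abundant GPI mannoprotein needed for wall stability, had 661, 746 and 828 TPM in the controls and 274, 303 and 535 TPM with NaHS. Here NaHS 3 was the highest of the treated libraries, and the groups did not overlap. CWP2 fell by 1.06 on the log2 scale (SE 0.262, adjusted p = 0.0215), but it lost the call with median-ratio scaling (0.0642), with upper-quartile scaling (0.126) and when any control or either of NaHS 1 and 2 was left out (0.0529 to 0.0769).

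The PIR genes were all lower in every early NaHS library than in any early control, as were 41.3% of all genes tested. PIR1, a glycoprotein of the wall linked to its stability, had 107, 117 and 134 TPM in the controls and 57.8, 58.4 and 30.3 TPM with NaHS, and fell by 1.32 on the log2 scale (SE 0.269, adjusted p = 0.0109). HSP150, a secreted, heavily mannosylated protein first known from heat shock, had 841, 956 and 1227 TPM in the controls and 541, 476 and 270 TPM with NaHS. It fell by 1.27 on the log2 scale (SE 0.286, adjusted p = 0.0155), with an adjusted p of 0.0517 without control 2 and 0.0588 without control 3. CIS3, the shortest of the 4 by coding length, had 225, 240 and 304 TPM in the controls and 146, 122 and 109 TPM with NaHS. Of the 4 genes it had the smallest adjusted p, at a log2 change of -1.02 (SE 0.166, adjusted p = 0.00504). PIR3, a further wall glycoprotein of the family, had 597, 621 and 901 TPM in the controls and 267, 252 and 35.1 TPM with NaHS. NaHS 3 set the spread of this gene. With it the log2 change was -2.37 (SE 0.772) and missed the threshold (adjusted p = 0.0524), and without it the change was -1.42 and passed (adjusted p = 0.00191).

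SPI1, a GPI protein known to be induced in stationary phase and by weak acids, went the other way. Its early controls had 6297, 5880 and 5505 TPM and its NaHS libraries 13848, 14145 and 17735 TPM, with no overlap and with NaHS 3 in this case the highest. The log2 change was 1.36 (SE 0.133, limma adjusted p = 0.000892), and it lay between 1.25 and 1.72 over the 16 alternatives run, all past the threshold. SED1, its paralog and the major GPI protein of stationary-phase walls, had 2363, 2427 and 2824 TPM in the controls and 2689, 2742 and 1242 TPM with NaHS. The groups of SED1 overlapped, and its log2 change of -0.27 (adjusted p = 0.518) became 0.10 without NaHS 3 and 0.0842 with upper-quartile scaling. PST1, a GPI protein known to be induced by wall damage, had 65.6, 62.1 and 101 TPM in the controls and 93.3, 84.4 and 29.9 TPM with NaHS, again with overlap. Its log2 change of -0.26 (adjusted p = 0.672) became 0.25 without NaHS 3 and 0.0897 with upper-quartile scaling. TIR1, a mannoprotein known from cold and oxygen-poor growth, was the lowest of the 10, at 10.2, 8.08 and 9.61 TPM in the controls and 6.64, 6.34 and 5.18 TPM with NaHS. It fell by 0.55 on the log2 scale (SE 0.149, adjusted p = 0.0302) and lost the call with median-ratio scaling (0.123), with upper-quartile scaling (0.243) and when any control or either of NaHS 1 and 2 was left out (0.0501 to 0.110).

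**Figure D1:**
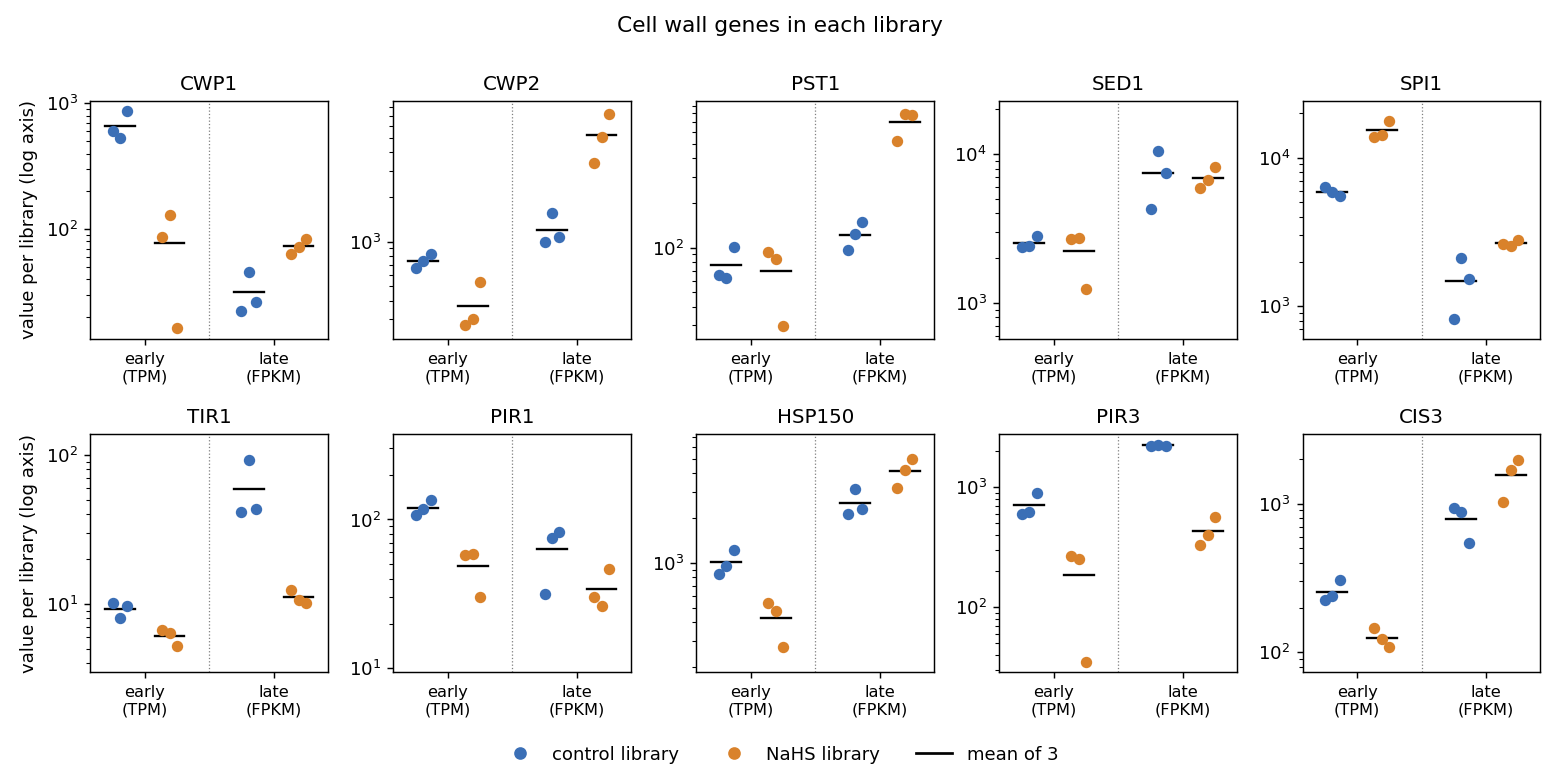
Value of each wall gene in every library (points, blue for control and orange for NaHS, log axis) with the mean of each group of 3 (lines), in TPM for early and FPKM for late cultures, which were normalized separately and are not compared in level. CWP1, CWP2, HSP150 and CIS3 lie lower with NaHS on the early side and higher with NaHS on the late side, while PIR3 and TIR1 lie lower with NaHS on both.

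In late cultures 3 of the 10 wall genes were higher with NaHS and 2 lower. CWP1, CWP2 and PST1 rose, PIR3 and TIR1 fell, and PIR1, HSP150, CIS3, SED1 and SPI1 did not pass. Among all 5344 genes tested, 5.28% were called higher and 9.99% lower, and the median log2 change was 0.82 over the wall genes against 0.0529 over all genes. The NaHS values lay above all control values in 6 wall genes (18.8% of all genes) and below them in 2 (19.8% of all genes).

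PST1 had the largest late rise of the 10. Its late controls had 96.4, 123 and 148 FPKM and its NaHS libraries 521, 791 and 784 FPKM. The groups were widely separated, and the log2 change was 2.50 (SE 0.246, limma adjusted p = 0.00148), between 2.34 and 2.70 over 16 alternatives. CWP2 had 991, 1546 and 1073 FPKM in the controls and 3374, 5019 and 7159 FPKM with NaHS. Every treated library lay above the highest control, and the log2 change was 2.07 (SE 0.318, adjusted p = 0.00803). CWP1 was far lower in level, at 22.4, 45.8 and 26.5 FPKM in the controls and 63.4, 72.6 and 84.2 FPKM with NaHS. It rose by 1.25 on the log2 scale (SE 0.285, adjusted p = 0.0307), and the call was lost without control 1 (0.0548), control 3 (0.104) or any NaHS library (0.0705 to 0.106).

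PIR3 and TIR1 fell in late cultures. PIR3 was even across the late controls, at 2209, 2251 and 2209 FPKM, and had 327, 402 and 562 FPKM with NaHS. This was the clearest late change of the 10 by its p, at -2.40 on the log2 scale (SE 0.223, limma adjusted p = 0.00115). TIR1 had 41.6, 92.3 and 43.1 FPKM in the controls and 12.4, 10.6 and 10.2 FPKM with NaHS. Control 2, the library with the highest total, stood above the other controls, and without it the change was -1.85. The log2 change was -2.22 (SE 0.323, adjusted p = 0.00664), between -2.41 and -1.85 over 16 alternatives. 

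The other PIR genes did not pass the threshold. HSP150 had 2113, 3122 and 2292 FPKM in the late controls and 3176, 4178 and 4970 FPKM with NaHS, just without overlap, and CIS3 had 938, 878 and 544 FPKM in the controls and 1024, 1675 and 1974 FPKM with NaHS. By limma, the log2 changes were 0.71 (SE 0.242, adjusted p = 0.0959) and 0.97 (SE 0.322, adjusted p = 0.0888). HSP150 passed with equal library totals (0.0203) and with upper-quartile scaling (0.0443). PIR1 had 31.5, 75.5 and 82.1 FPKM in the controls and 30.1, 26.2 and 46.8 FPKM with NaHS, and its groups overlapped through control 1. Its log2 change was -0.78 (SE 0.408, adjusted p = 0.232), and without control 1 it was called lower at -1.22 (adjusted p = 0.0362).

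The paralogs SPI1 and SED1 both spread widely among the late controls. SPI1 had 823, 2115 and 1527 FPKM in the controls and 2634, 2532 and 2785 FPKM with NaHS, without overlap. Its log2 change of 0.93 (SE 0.339) missed the threshold (limma adjusted p = 0.112) and passed with equal totals (0.0361) or without control 2 (0.0413). SED1 had 4266, 10580 and 7470 FPKM in the controls and 5890, 6716 and 8136 FPKM with NaHS, with all treated values inside the range of the controls. Its log2 change was -0.0224 (SE 0.344, adjusted p = 0.973), and its sign turned with equal totals (0.0593) and upper-quartile scaling (0.0885). Late control 2, the library with the highest total, had the highest control value of 7 wall genes, against 40.9% of all genes tested.

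The change with NaHS differed between the stages for 6 of the 10 wall genes, by limma's interaction of stage and treatment over all 12 libraries, in which each table serves as its own reference. Late minus early effects were higher for CWP1 (4.73, SE 0.846, adjusted p = 0.00308), CWP2 (3.13, SE 0.443, adjusted p = 0.000829) and PST1 (2.76, SE 0.549, adjusted p = 0.00558) on the log2 scale. HSP150 and CIS3, which had fallen early and lay above their controls late, differed by 1.98 (SE 0.400, adjusted p = 0.00591) and 1.99 (SE 0.386, adjusted p = 0.00474). TIR1 was the exception in direction, with a late effect below the early effect by 1.67 (effect difference of -1.67, SE 0.381, adjusted p = 0.0106). Among 5165 genes tested in both tables, 15.2% had a higher and 7.55% a lower late effect, and the median difference was 0.25 (0.00438 under median-ratio and 0.0336 under upper-quartile scaling). Each of the 6 kept its call over every alternative run for it, and TIR1 was not tested with a minimum mean of 10. Without early NaHS 3 the difference for CWP1 was 3.85.

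The stages were not shown to differ for the other wall genes. For PIR3 the difference was -0.0368 with a wide error (SE 0.866, limma adjusted p = 0.981), and without early NaHS 3 it was -0.99 (adjusted p = 0.0511). PIR1, SED1 and SPI1 differed by 0.54 (SE 0.528), 0.25 (SE 0.510) and -0.43 (SE 0.401), with adjusted p of 0.486, 0.751 and 0.465. SPI1 alone among these passed in an alternative, without late control 1 (-0.80, adjusted p = 0.0455).

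**Figure D2:**
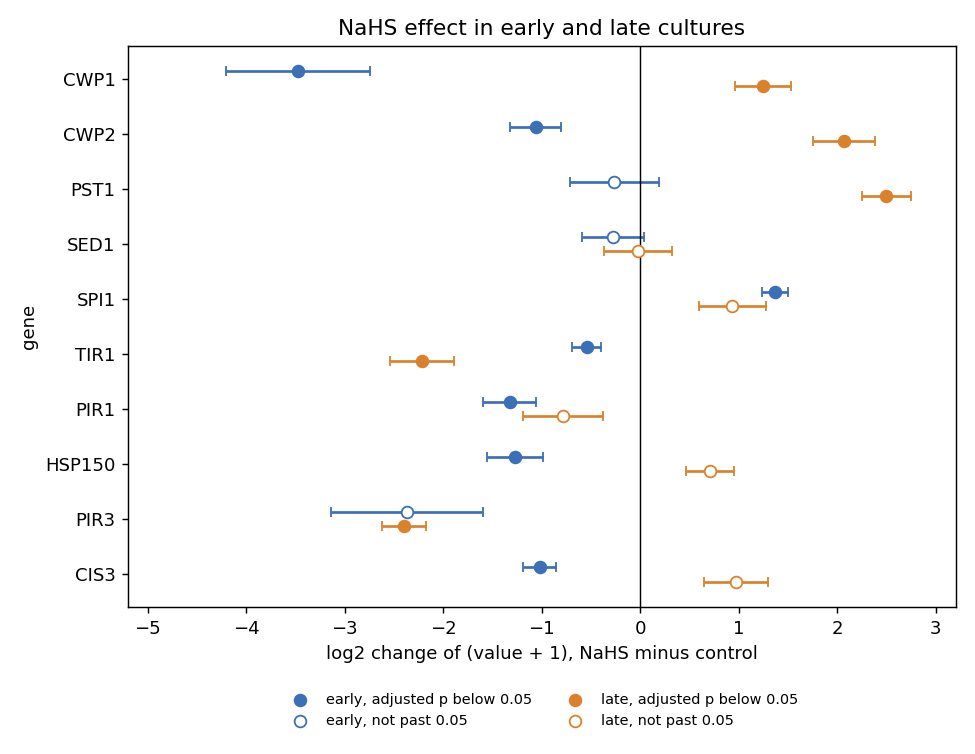
Log2 change of the value plus 1, NaHS minus control, for each wall gene in early (blue) and late (orange) cultures, with 1 SE of limma's fit as bars and filled points where the adjusted p was below 0.05. CWP1 goes from -3.48 early to 1.25 late, and PIR3 is at -2.37 and -2.40.

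Ratios between related genes were taken within each library, after adding 1 to both values, for 4 pairs in each stage. They depend on the value added, and the late NaHS difference for CWP1 to CWP2 was -0.793 with 0.1 and -0.919 with 5 in its place. The log2 ratio of SED1 to its paralog SPI1 was -1.41, -1.28 and -0.96 in early controls and -2.36, -2.37 and -3.84 with NaHS. In late controls it was 2.37, 2.32 and 2.29, and with NaHS 1.16, 1.41 and 1.55. In both stages the ratio was lower in every NaHS library, by a mean of 1.64 early (difference of -1.64, or -1.15 without NaHS 3) and of 0.96 late (difference of -0.96), so SPI1 gained on SED1. The late controls were close together in this ratio although both genes spread widely in level.

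The ratio of CWP1 to CWP2 was also lower with NaHS in both stages, although both genes fell early and rose late. It was -0.19 ± 0.28 in early controls and -2.60 ± 2.04 with NaHS, and -5.25 ± 0.18 in late controls and -6.07 ± 0.34 with NaHS (mean log2 ratio ± SD over 3 libraries). The early difference of -2.41 was -1.24 without NaHS 3. The ratio of PIR1 to PIR3, which share the region between them, was higher with NaHS in both stages, by 1.04 early (0.40 without NaHS 3) and by 1.62 late. HSP150 to CIS3 had differences of -0.25 early (-0.0505 without NaHS 3) and -0.26 late (from -0.523 to -0.0725 with a library left out), with overlap between groups in both. With 3 libraries a side, 0.1 is the lowest p of a 2-sided exact permutation test. The first 3 pairs reached it in both stages, and HSP150 to CIS3 had exact permutation p = 0.2 early and 0.4 late. Adjusted over the 8 tests the smallest p was 0.133, so none passed.

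**Figure D3:**
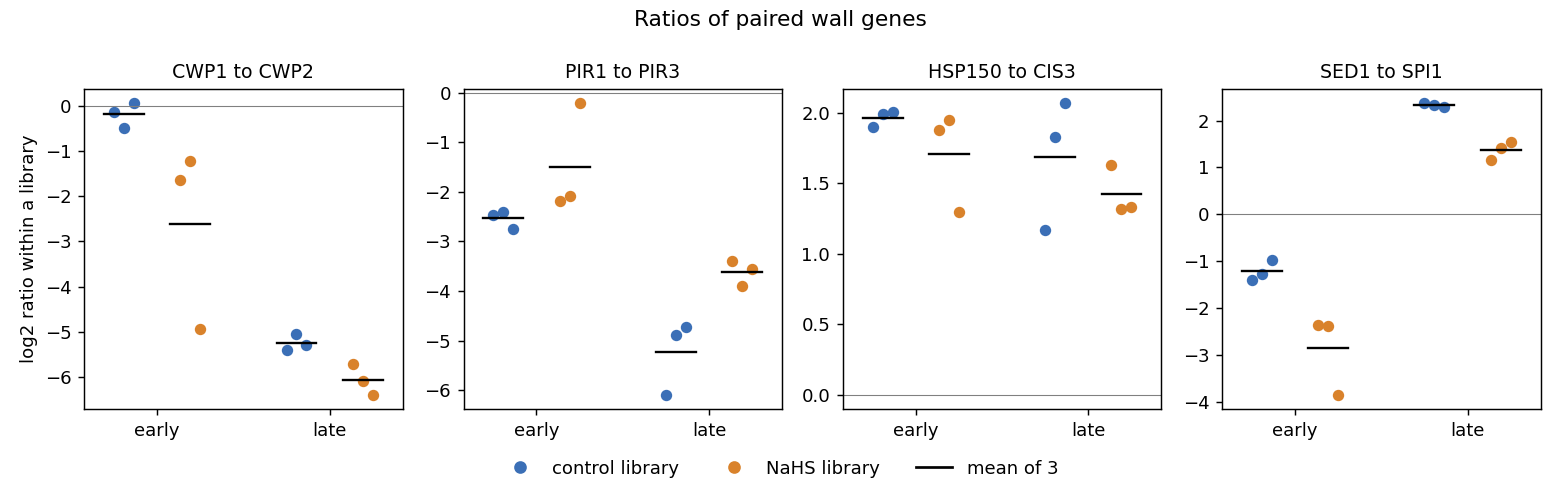
Log2 ratio of 2 wall genes within each library (points, blue for control and orange for NaHS) and the mean of each group of 3 (lines), for 4 pairs of neighbours or paralogs in early and late cultures. SED1 to SPI1 is lower in all 3 NaHS libraries of each stage than in any control of that stage.

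The 10 genes together held 1.18%, 1.16% and 1.27% of the early control totals and 1.80%, 1.83% and 2.00% of the early NaHS totals. SPI1 alone went from 0.591% ± 0.0395 to 1.53% ± 0.217 of the total, and the mean share of each of the other 9 genes was lower with NaHS. SPI1 made up between 43.4% and 53.5% of that sum in the controls and between 76.9% and 88.6% with NaHS. The 4 PIR genes together went the other way, from 0.209% ± 0.042 to 0.0788% ± 0.0302 of the total. In late libraries the 10 genes held 0.764%, 0.971% and 0.940% of the control totals and 1.11%, 1.28% and 1.51% of the NaHS totals. SED1 was the largest part there, with between 37.0% and 50.8% of the sum in controls and between 30.7% and 34.5% with NaHS. These shares were not tested, and in RNA from whole cultures more cells expressing a gene and more RNA per cell cannot be told apart.

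By level per length, the order of the genes differed between the groups. Overlap was read between neighbours in the order, and is given for other genes only where stated. In early controls SPI1 came first (5894 ± 396 TPM, SD, n = 3 libraries; place 7 among 7126 entries), then SED1 (2538 ± 250 TPM) and HSP150 (1008 ± 198 TPM), each apart from the next in every library. CWP2, PIR3 and CWP1 followed with overlapping values, then CIS3, PIR1, PST1 and TIR1 without overlap. With early NaHS, SPI1 (15243 ± 2164 TPM) was at place 3 of all entries, and CWP1 stood behind CIS3, with overlap between HSP150 and CWP2, PIR3 and CIS3, CIS3 and CWP1, CWP1 and PST1, and PST1 and PIR1. In late controls SED1 came first (7438 ± 3157 FPKM), then HSP150 and PIR3 with overlap, and SPI1 and CWP2 with overlap. CIS3 and PST1 followed, and then PIR1, TIR1 and CWP1 with overlapping values. SPI1, between 823 and 2115 FPKM there, also overlapped CIS3 (up to 938 FPKM) and HSP150 (down to 2113 FPKM). With late NaHS, SED1 (6914 ± 1136 FPKM), CWP2 (5184 ± 1898 FPKM) and HSP150 (4108 ± 899 FPKM) came first, each overlapping the next, and TIR1 (11.1 ± 1.20 FPKM) came last. CWP2 and SPI1 are short genes of 279 and 447 coding bases, for which values per length depend strongly on the length correction used by the authors, which is not given in the sources used here.

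The genes whose early pattern was nearest to that of CWP1, the wall gene with the largest early change, were PNS1, ICL1, YDL023C, MLS1 and ALD6. Their distance to CWP1 over the 6 early libraries, on centred log2 values, was between 0.809 and 0.933, against a median of 4.48 over 4125 genes. They were picked as the nearest over these same libraries, as were those for PST1 below. Their small distance, direction and calls therefore follow from the choice and are no separate result. ICL1 (isocitrate lyase) and MLS1 (malate synthase) are enzymes of the glyoxylate cycle, and ALD6 is an acetaldehyde dehydrogenase. ICL1 had 5235 ± 72.9 TPM in early controls and 929 ± 667 TPM with NaHS and was called lower (-2.93 on the log2 scale, limma adjusted p = 0.0214). In late cultures the genes nearest to PST1 were CIP1, TDA6, TOS3, DLD1 and SSA4, at distances between 0.542 and 0.867 against a median of 3.16 over 3756 genes. SSA4, a stress-induced Hsp70 chaperone, rose from 53.3 ± 9.61 to 233 ± 74.7 FPKM, by 2.07 on the log2 scale (adjusted p = 0.00593), and DLD1, a mitochondrial lactate dehydrogenase, rose from 102 ± 30.5 to 510 ± 70.7 FPKM.

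Other genes of wall building were read from 6 lists of 95 genes in all. In early cultures 11 of 93 tested were called higher (11.8%, against 10.1% of all genes) and 27 lower (29.0%, against 28.5% of all genes), so the early split was near that of all genes. In late cultures 20 of 83 tested were called higher (24.1%, against 5.28% of all genes) and 4 lower (4.82%, against 9.99% of all genes). Among 16 other GPI wall proteins tested early, 1 rose and 8 fell, against 10.1% and 28.5% of all genes. With median-ratio or upper-quartile scaling 4 of them fell in place of 8. Lower calls over all genes also shrank under these scalings, to 1122 of 6124 and 939 of 6128, against 1743 of 6124 as deposited. YPS1, a GPI-anchored aspartyl protease of the cell surface, fell from 335 ± 6.85 to 44.7 ± 12.1 TPM, by 2.91 on the log2 scale (limma adjusted p = 0.000417), and the flocculin FLO1 fell by 1.13, while TIP1, a relative of TIR1, rose by 0.47. Late, 1 of 17 rose and 4 fell. CCW12, a structural GPI mannoprotein, rose from 15625 ± 7175 to 40679 ± 2191 FPKM (log2 change of 1.47, adjusted p = 0.0259), whereas DAN1, an anaerobic wall protein, and NCW2 fell by 2.05 and 2.33 on the log2 scale.

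Over all genes, 28.5% were called lower and 10.1% higher early, and 9.99% lower and 5.28% higher late. Of 20 wall remodelling enzymes tested early, 13 did not pass, 1 rose (KRE9, needed for beta-1,6-glucan, by 0.56) and 6 fell, near the share of all genes. Among those that fell were the glucan-modifying GAS5 and SCW4, by 1.70 and 1.43 on the log2 scale. Of 16 tested late, 6 rose, none fell and 10 did not pass, and those that rose included GAS1, the main beta-1,3-glucanosyltransferase, from 922 ± 80.0 to 3004 ± 196 FPKM (log2 change of 1.70, limma adjusted p = 0.00106) and KNH1 by 1.89. Of 14 genes of glucan and chitin synthesis tested early, 2 rose and 5 fell, with the chitin synthase CHS1 at 1.27 and QRI1, which makes the sugar nucleotide for chitin, at -1.50. Of 13 tested late, 3 rose, with the chitin synthase export factor CHS7 at 1.03 and GFA1, the first enzyme towards chitin, at 1.01.

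The shares of all genes called were 10.1% higher and 28.5% lower early, and 5.28% higher and 9.99% lower late. Of 18 signalling genes of the wall pathway tested early, 3 rose, 4 fell and 11 did not pass. RLM1 itself rose from 17.3 ± 1.27 to 33.4 ± 3.96 TPM (log2 change of 0.91, limma adjusted p = 0.00335), as did PTP2, a phosphatase of the kinase Slt2, by 1.11, whereas SDP1, a stress-induced phosphatase of the same kinase, and the kinase MKK2 fell by 1.60 and 0.80. Of 14 tested late, 6 rose, none fell and 8 did not pass, with the membrane sensors WSC2 and MTL1 at 2.03 and 1.56 on the log2 scale. Among the 5 wall genes with an Rlm1 match, CWP1 and HSP150 fell early, and CWP1 and PST1 rose while PIR3 fell late. Of the wall genes without a match, CWP2, PIR1, CIS3 and TIR1 fell and SPI1 rose early. Late, CWP2 rose and TIR1 fell among those without a match. Calls were thus found with and without a match, and a link between match and change was not tested.

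For the last 2 lists, the shares of all genes were again 10.1% higher and 28.5% lower early, and 5.28% higher and 9.99% lower late. Of 15 genes for GPI transfer and mannosylation tested early, 4 fell, near the share of all genes, and none rose. The mannosyltransferases PMT4 and OCH1 were at -1.56 and -1.16 on the log2 scale. Of 14 genes of this list tested late, 2 rose, PMT1 by 0.82 and GAB1, a subunit of the GPI transamidase, by 0.67. Of 10 stress and oxygen regulators tested early, 4 rose and none fell, with the stress factor MSN4 at 0.98 and ROX1 at 1.25. With median-ratio scaling 7 rose, and with upper-quartile scaling 8. Higher calls over all genes also grew under these scalings, to 1067 of 6124 and 1207 of 6128, against 616 of 6124 as deposited. Early ROX1 had 73.89, 67.05 and 67.04 TPM in controls and 256.57, 203.27 and 86.87 TPM with NaHS (SE 0.385, limma adjusted p = 0.0443). NaHS 3 was nearest to the controls. Of 9 regulators tested late, 2 rose, with ROX1 from 90.4 ± 36.4 to 327 ± 88.9 FPKM (log2 change of 1.90, limma adjusted p = 0.0183). With upper-quartile scaling the early counts over the 6 lists were 21 higher and 17 lower, so the early split depends on the scaling.

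**Figure D4:**
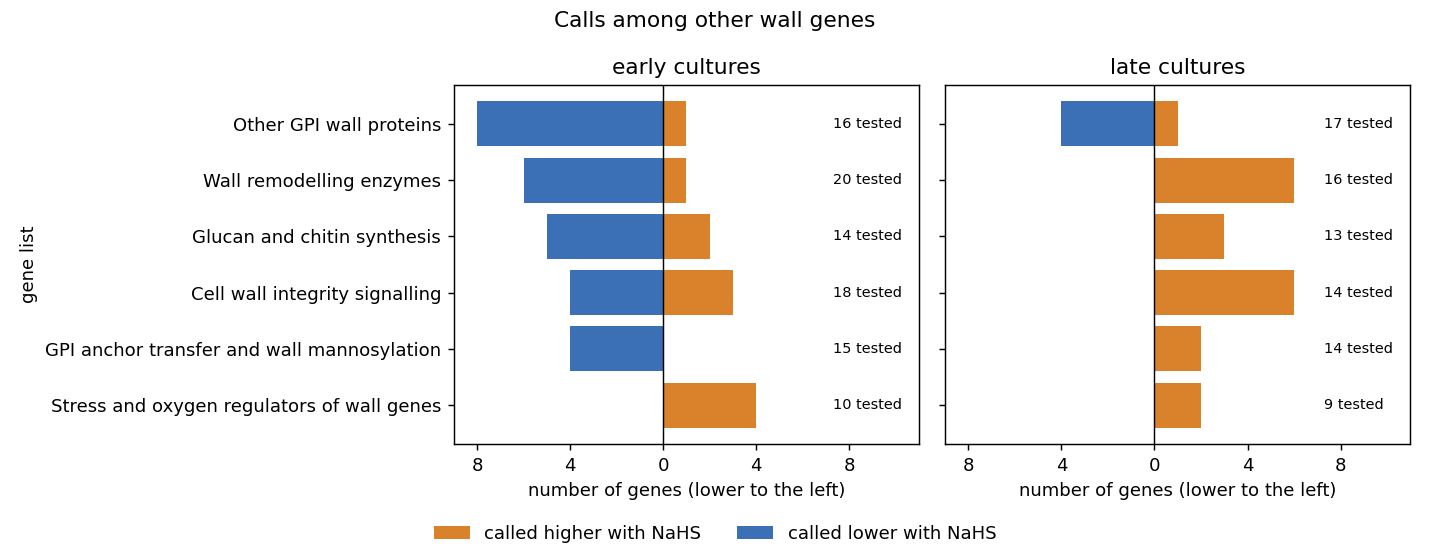
Number of genes called higher (orange, to the right) and lower (blue, to the left) with NaHS in each of 6 lists of other wall genes, with the number tested beside each bar. Over the 6 lists, 11 were higher and 27 lower early, and 20 higher and 4 lower late. Among all genes tested, 10.1% were higher and 28.5% lower early, and 5.28% higher and 9.99% lower late.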

How the data were processed

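Paired reads (NovaSeq 6000) were trimmed with SeqPrep and Sickle and aligned with TopHat in its orientation mode, per the labels' protocols, and Bowtie 0.12.2 and the R64 reference are named in the submitters' processing notes. No quantifier or annotation is given in the sources used here. The authors deposited an early table in TPM (unit read from the deposited values, whose columns have nearly equal sums) and a late table in FPKM per the file headers. Depth per library is unknown, so no counting interval is given. Because the tables were normalized separately, levels were not compared between stages.

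Tests used log2 values after adding 1, for genes whose mean over the 6 libraries of a table reached 1. Entries that name no gene (319 early, 429 late) were left out. Each stage was fitted with limma 3.58.1 in R 4.3.3 (moderated test with trend, 2-sided), with Benjamini-Hochberg adjusted p over every gene tested and a threshold of 0.05. Stages were compared with the interaction of stage and treatment. The fits were tested on simulated data. All 95 list genes were found in both tables. Promoter stretches were read from the R64 genome.

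The wall genes, the 6 lists and the tests were chosen with earlier results of these data known. Genes outside the 10 were named by rule: up to 2 higher and 2 lower calls per list with the largest change, a mean of at least 10 and no 0, and the 5 genes with the smallest distance to the wall gene of largest called change. Alternatives tried were pseudocounts of 0.1 and 5, no filter, a mean of at least 10, 3 scalings, a minimum log2 change of 1, a replicate block, leaving out each library, leaving out genes with a 0, and keeping entries that name no gene.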

Additional observations from a re-analysis of the deposited data

Results flagged for a closer look

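A difference between early and late cultures in the effect of NaHS, tested by limma's interaction over 12 libraries, marked 6 wall genes. Among all 5165 genes tested, 15.2% had a higher and 7.55% a lower late effect. Late minus early effects on the log2 scale were 4.73 for CWP1, 3.13 for CWP2, 2.76 for PST1, 1.98 for HSP150, 1.99 for CIS3 and -1.67 for TIR1. In the within-stage tests, CWP1 and CWP2 were called lower early and higher late, HSP150 and CIS3 were called early only, PST1 was called late only, and TIR1 was called lower in both. The stages differ in table, unit and normalization as well as in the time of treatment, and these cannot be told apart in the interaction, although each table serves as its own reference.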

How the results depend on the processing

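Early calls over all genes were 616 higher and 1743 lower. Median-ratio scaling gave 1067 and 1122, upper-quartile scaling gave 1207 and 939, and they were 160 and 775 with a minimum log2 change of 1. With a library left out they were between 296 and 936 higher and between 1093 and 2317 lower. Upper-quartile scaling moved the median early change of all genes from -0.24 to 0.08, and median-ratio scaling moved it to -0.00969. Over the 6 wall lists, early calls of 11 higher and 27 lower were 17 lower under median-ratio and 21 higher and 17 lower under upper-quartile scaling. The 6 wall genes called lower early were between 3 and 7 with a library left out, with 3 without control 2 or control 3. Late calls over all genes were 282 higher and 534 lower. They were 176 higher with a minimum log2 change of 1, and between 123 and 291 higher and between 290 and 580 lower with a library left out. Late wall genes called higher were 5 in place of 3 with equal totals. For the difference between stages, higher calls over all genes were 787, against 488 under median-ratio and 510 under upper-quartile scaling, and lower calls were 390, and between 254 and 439 with a library left out. Wall genes called lower there were 0 in place of 1 with a minimum mean of 10, where TIR1 is not tested, and between 1 and 2 with a library left out.

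Signs turned only for changes that had not passed. With upper-quartile scaling the early changes of PST1 and SED1 were 0.0897 and 0.0842, and the late change of SED1 was 0.0885, or 0.0593 with equal totals. The difference between stages was -0.0276 for SED1 with median-ratio scaling and 0.0403 for PIR3 with equal totals. With a library left out, early PST1 lay between -0.55 and 0.25, early SED1 between -0.47 and 0.10 and late SED1 between -0.38 and 0.28. The difference between stages then lay between -0.99 and 0.46 for PIR3 and between -0.12 and 0.55 for SED1. Early CWP1, PIR1, CIS3 and SPI1 and late CWP2, PST1, PIR3 and TIR1 kept their calls in every alternative run for them. The pair ratios kept their direction in every alternative, and the shares of the total moved by less than 1 SD when entries without a gene were left out. The causes of these dependences were not tested.

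Libraries with the same replicate number showed little shared deviation over all genes (correlations between -0.0345 and -0.0112 early and between -0.113 and 0.0861 late). With 3 libraries a side this cannot exclude pairing, and no label states that the numbers pair libraries. With a replicate block, late calls were 139 higher and 348 lower, and early TIR1 (adjusted p = 0.066) and late CWP1 (adjusted p = 0.056) lost their calls.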

Other observations

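PIR5 (YJL160C), a further gene of the PIR family, lies outside the 10 genes and the lists and was looked up after the other values had been seen. It had 21.7, 25.2 and 24.7 TPM in early controls and 5.86, 6.67 and 5.09 TPM in early NaHS libraries, all below the controls. Its log2 change was -1.86 (SE 0.138, limma adjusted p = 0.00047), and early NaHS 3 was close to the other treated libraries. In the late table PIR5 was listed at 0 in all 6 libraries.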
